A study of Mus musculus with 6 samples.

Results

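The endothelial cells of mouse islets were examined in single-cell RNA-Seq libraries from WT mice and from mice lacking 14-3-3ζ in β cells (β14-3-3ζ–KO). The members were barcodes with at least 500 detected genes, at most 10% of unique molecular identifiers (UMIs, 1 per captured RNA molecule) on mitochondrially encoded genes, less than 25% of UMIs on *Ins1* and *Ins2*, a UMI of at least 4 of the 6 endothelial genes *Cdh5*, *Pecam1*, *Plvap*, *Kdr*, *Flt1*, and *Egfl7*, at most 1 UMI of the pericyte gene *Rgs5*, and no UMI of the leukocyte gene *Ptprc*. These limits selected 810 barcodes of 43445 in all and of 27004 that passed the limits on genes and mitochondrial share. They came to 99, 158, and 90 in WT replicates 1 to 3 and to 129, 233, and 101 in KO replicates 1 to 3. All mice were 12 to 14 weeks old and on a C57/BL6 background (C57BL/6J in the study's methods). The KO mice carried *Ins1*-CreThor and *Ywhaz* alleles with LoxP sites around exon 4, and the littermate controls of the study carried Cre without floxed alleles. Since Cre was expressed from *Ins1*, the deletion was meant for β cells, and endothelial cells of KO islets were cells beside targeted cells. Islets recovered overnight in culture, were dispersed with trypsin, and were depleted of dead cells before loading, and the labels do not say whether a library held islets of 1 mouse or of several, so the p values below measure only the spread between libraries.

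Islets are supplied by a dense net of fenestrated capillaries whose endothelium exchanges hormones and nutrients with the endocrine cells. Vascular endothelial growth factor from β cells, acting on its receptors KDR and FLT1, maintains these capillaries, and PLVAP forms the diaphragms of their fenestrae. In return, the endothelium lays down the basement membrane of the islet and releases factors that act on endocrine cells, and its vessel types (arterial, capillary, venous, and lymphatic) differ in the genes they express.

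Many endothelial genes are controlled by ETS family factors such as ERG, so the promoters of 3 genes that marked these cells strongly and of the marker *Esm1* are shown first, as RefSeq gives them for the build GRCm38.p6. The sequences run 5′ to 3′ on the strand of the gene, from 250 bases before the start site to 50 bases after it. Capitals mark AGGAAG or CGGAAG, 2 forms of the ETS core, on either strand. *Egfl7*, which encodes a secreted protein of vessel walls and is a rule gene, has its window at chr2:26580833-26581132 on the plus strand, *Emcn* (endomucin, a surface sialomucin) at chr3:137340828-137341127 on the plus strand, *Robo4* (a guidance receptor of endothelium) at chr9:37401722-37402021 on the plus strand, and *Esm1* (endocan, a proteoglycan of sprouting vessels) at chr13:113209409-113209708 on the plus strand.
Egfl7: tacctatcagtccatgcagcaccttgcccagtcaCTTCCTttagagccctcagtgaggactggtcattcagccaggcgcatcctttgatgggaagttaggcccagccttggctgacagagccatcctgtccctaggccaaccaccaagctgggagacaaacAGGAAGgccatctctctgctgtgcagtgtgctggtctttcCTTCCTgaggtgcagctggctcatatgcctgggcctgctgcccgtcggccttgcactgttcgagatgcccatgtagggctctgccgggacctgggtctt
Emcn: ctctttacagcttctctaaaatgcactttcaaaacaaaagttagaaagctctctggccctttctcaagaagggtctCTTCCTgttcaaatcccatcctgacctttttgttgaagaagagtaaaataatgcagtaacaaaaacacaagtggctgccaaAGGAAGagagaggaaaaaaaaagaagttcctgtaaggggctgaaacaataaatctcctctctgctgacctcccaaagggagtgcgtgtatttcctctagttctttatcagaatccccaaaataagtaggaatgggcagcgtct
Robo4: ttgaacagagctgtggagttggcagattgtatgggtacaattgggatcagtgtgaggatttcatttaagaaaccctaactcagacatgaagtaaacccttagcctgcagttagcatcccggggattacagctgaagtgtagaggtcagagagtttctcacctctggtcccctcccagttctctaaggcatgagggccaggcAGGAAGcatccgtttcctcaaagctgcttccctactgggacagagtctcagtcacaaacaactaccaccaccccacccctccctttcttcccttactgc
Esm1: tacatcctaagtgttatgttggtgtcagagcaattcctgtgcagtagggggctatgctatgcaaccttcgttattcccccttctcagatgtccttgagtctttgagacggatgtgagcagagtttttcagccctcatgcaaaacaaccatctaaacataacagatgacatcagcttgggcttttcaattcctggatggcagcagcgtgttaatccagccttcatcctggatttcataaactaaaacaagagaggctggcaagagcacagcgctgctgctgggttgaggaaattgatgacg
These windows held 3, 2, 1, and 0 matches, respectively. Of the 34 endothelial genes listed (the rule genes, the 3 other markers, and 25 further pan-endothelial genes), 19 were matched to a promoter, and 11 of those 19 (57.9%) held at least 1 match, beside 12540 of all 27025 promoters of that length (46.4%). The match of letters describes the sequence only, and binding was not measured here.

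The 6 rule genes chose the cells, so their levels are given as a description. A level is the UMIs of a gene per 1000000 UMIs summed over the endothelial cells of a library (CPM), and since a 3′ library counts ends of molecules, it does not scale with transcript length. *Flt1*, a VEGF receptor, was the highest of the 6 at 3117 CPM ± 571 (SD, n = 6 libraries), followed by the main VEGF receptor gene *Kdr* (2137 ± 375), *Egfl7* (1836 ± 173), *Plvap* (1709 ± 247), *Cdh5* (VE-cadherin, 1373 ± 300.2), and *Pecam1* (1059 ± 191). Of neighbours in this order, *Egfl7* and *Plvap* differed by less than the SD of either. All 6 genes had a UMI in 698 members, 5 genes in 65, and 4 genes in 47. The 47 members with exactly 4 genes had a median of 2094 UMIs, and the 59 barcodes that met every other limit with 3 genes had 2148, with *Esm1* at 1056 CPM just inside the limit and at 489.9 CPM just outside. At the *Rgs5* limit, 121 members had 1 UMI, and 86 barcodes with 2 UMIs fell outside.

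The 3 markers that the rule did not use were high in every library, so the name endothelial held against markers of islet capillaries. *Esm1* (chromosome 13, 113209659 to 113218098, plus strand, GRCm38) stood at 3041, 3663, and 3672 CPM in WT replicates 1 to 3 and at 3121, 2808, and 3459.6 CPM in KO replicates 1 to 3. *Igfbp3*, which encodes a binding protein of insulin-like growth factors (chromosome 11, 7206086 to 7213923, minus strand), stood at 4736, 3016, and 2750.3 CPM in WT and 3946, 2047, and 3073 CPM in KO. *Gpihbp1*, the anchor of lipoprotein lipase on capillaries (chromosome 15, 75596628 to 75599481, plus strand), stood at 1912, 1599.8, and 1222 CPM in WT and 1440.4, 1508, and 1791 CPM in KO. The WT and KO libraries overlapped for each of the 3 genes, and their log2 fold changes (KO over WT) were -0.09 (SE 0.168), -0.16 (SE 0.244), and 0.06 (SE 0.179), none of them past the test given below.

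**Figure D1:**
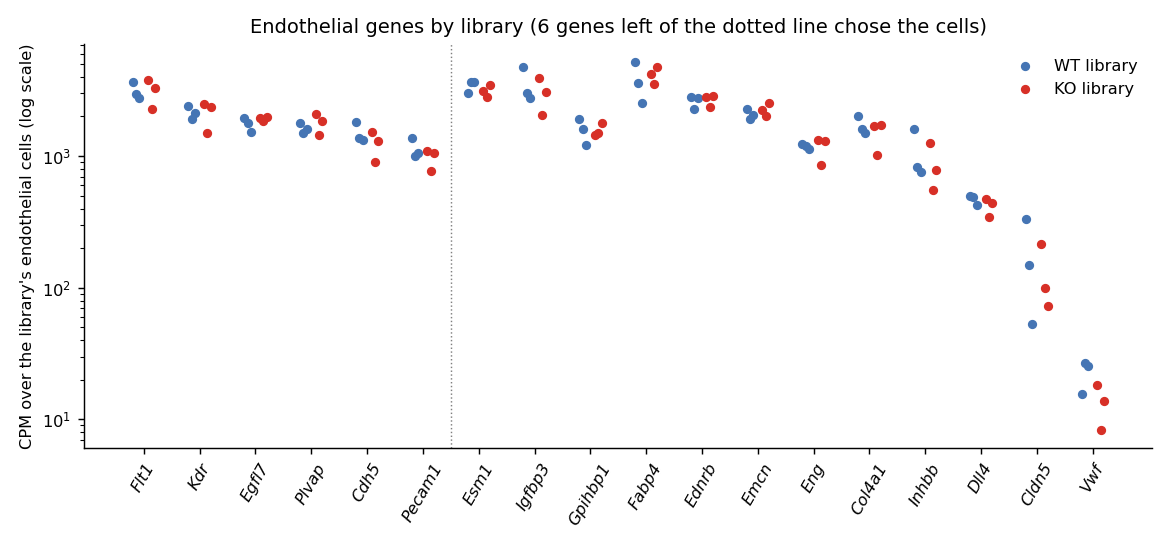
Level of 18 endothelial genes in each library, on a log axis in CPM over the endothelial cells of the library, with WT in blue and KO in red. The 6 genes left of the dotted line chose the cells; *Esm1* lay between 2808 and 3672 CPM in all 6 libraries, while *Cldn5* ranged from 53.1 to 336 CPM.

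In endothelial cells, the 10 genes outside the rule with the largest ratios stood at 472 to 726 times the highest of 4 other classes. The other classes of the same libraries were gated from expressed genes, so this is a description with no test. The mesenchymal and macrophage gates allowed at most 1 of the 6 rule genes, so low endothelial RNA there was partly set in advance. The other classes were 523 barcodes with the endothelial genes and at least 2 UMIs of *Rgs5*, 14829 insulin-rich, 870 glucagon-rich, 107 mesenchymal (4 to 41 a library), and 679 macrophage barcodes. The 10 genes with the largest ratio of the endothelial mean to the highest mean of the last 4 classes were *Cldn5*, *Robo4*, *Erg*, *Myct1*, *Sox17*, *Adgrl4*, *Cd300lg*, *Emcn*, *Exoc3l2*, and *Col13a1*, with ratios from 726 down to 472. *Emcn* had a mean of 2169 CPM ± 222 (SD, n = 6) and at most 4.37 CPM in the other 4 classes. *Erg* and *Sox17*, which encode transcription factors of endothelium, had means of 228 and 116 CPM and at most 0.435 and 0.226 CPM elsewhere. *Inhbb*, which encodes the β chain of activin B and was not picked by this ratio, had a mean of 960.1 CPM beside at most 3.76 CPM elsewhere. The barcodes that also carried *Rgs5* had endothelial levels close to those of the members, such as 3128 CPM of *Esm1* and 1977 CPM of *Emcn*.

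**Figure D2:**
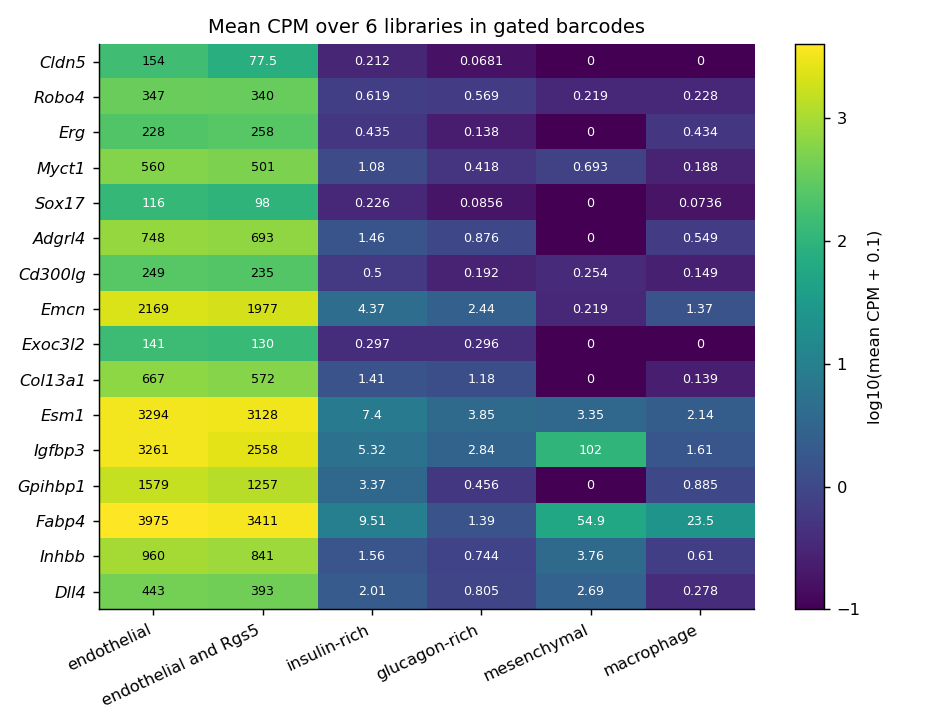
Mean CPM over the 6 libraries, printed in each cell and coloured on a log10 scale, for the 10 genes with the largest ratio and for 6 further genes in 6 gated classes of barcodes. *Emcn* read 2169 CPM in endothelial cells and 4.37 CPM in insulin-rich barcodes.

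The capillary genes were led by *Fabp4*, a fatty acid carrier, with 5157, 3615, and 2524 CPM in WT and 4236, 3535, and 4781 CPM in KO. *Ednrb*, the endothelin receptor B, varied less, from 2268 to 2844 CPM over the 6 libraries. *Cd36*, a fatty acid transporter abundant in capillaries of muscle and fat, had a mean of only 5.51 CPM, and *Meox2*, a transcription factor of heart and muscle capillaries, had 1.12 CPM. The arterial genes *Dll4*, a Notch ligand, and *Efnb2*, an ephrin, had means of 443 and 188 CPM, whereas the arterial connexin gene *Gja5* had 3 UMIs in all and was at 0 in 4 libraries. Among venous genes, *Ephb4* had 65.4 CPM, *Vwf* (von Willebrand factor) 18.03 CPM, *Nr2f2* (a venous transcription factor) 12.9 CPM, and *Selp* (P-selectin) 5.01 CPM. Among lymphatic genes, *Flt4* had 284.7 CPM, but *Prox1*, the lymphatic master regulator, had 20.3 CPM and had a UMI in 7.19% of insulin-rich barcodes against 4.39% of endothelial cells when each cell was thinned to 2000 UMIs.

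Nearly all endothelial cells passed for a list of tip cell genes, a list that includes their marker *Esm1*. Each cell was thinned to 2000 UMIs, a depth that 21 WT and 7 KO cells did not reach, and a cell was counted when it had a UMI of at least 2 genes of a list. Of the 782 cells, 732 passed for tip cell genes (*Esm1*, *Trp53i11*, *Cxcr4*, *Mcam*, *Angpt2*, and 5 more), 329 for arterial genes, 99 for cell division genes, 11 for venous genes, and 9 for lymphatic genes, and 29 passed for none. After thinning, a UMI of *Esm1* was found in 91.2% of the cells, of *Mcam* in 55.7%, and of the tip cell gene *Apln* in 12.7% (means over libraries). Passing for the list therefore does not show that a cell was a tip cell. *Trp53i11*, the second of the tip cell genes by level, had 746 to 1122 CPM, and *Angpt2*, a secreted antagonist of the TIE2 receptor, had 375 to 577 CPM. Arterial and tip cell genes were met together in 316 cells. Since 732 of the 782 cells passed for tip cell genes, this overlap cannot show whether arterial and tip cells were separate. By library, the tip cell share was 90.8%, 92.2%, and 94.1% in WT and 95.1%, 94.0%, and 95.0% in KO, and the arterial share was 42.5%, 42.2%, and 45.9% in WT and 48.0%, 34.8%, and 48.0% in KO. KO replicate 2 was the lowest of the 6 for the arterial share. The KO minus WT differences were 2.33 percentage points for tip cell genes (2-sided exact permutation p = 0.2 over 3 against 3 libraries, where the smallest possible p is 0.1) and 0.0375 points for arterial genes (exact p = 1), with a Benjamini-Hochberg adjusted p of 1 for all 5 lists. The tip cell groups overlapped only through KO replicate 2, which lay just under WT replicate 3.

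The venous share was 1.60% ± 0.656 in WT and 1.30% ± 0.313 in KO (SD, n = 3 libraries each), with an exact permutation p = 0.6, and the cell division share was 12.6% ± 1.34 and 13.0% ± 0.991, with an exact permutation p = 0.8. Insulin-rich barcodes thinned in the same way passed for 0.434% (tip cell), 0.179% (arterial), 0.0335% (venous), 0.133% (lymphatic), and 1.86% (cell division). The highest cell division genes were *Pcna* and *Hmgb2*, of DNA replication and chromatin, at 90.6 and 68.1 CPM, while *Mki67* had 4 UMIs, *Top2a* 3, and *Ccnb1* 2 over all 810 cells. Lymphatic genes passed in 7 of 233 cells of KO replicate 2 (3.00%), in 1.15% and 0.649% of cells of WT replicates 1 and 2, and in none of the cells of the other 3 libraries, where a count of 0 allowed up to 3.53% (WT replicate 3), 2.44% (KO replicate 1), and 3.0% (KO replicate 3), limits that cover counting error only.

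**Figure D3:**
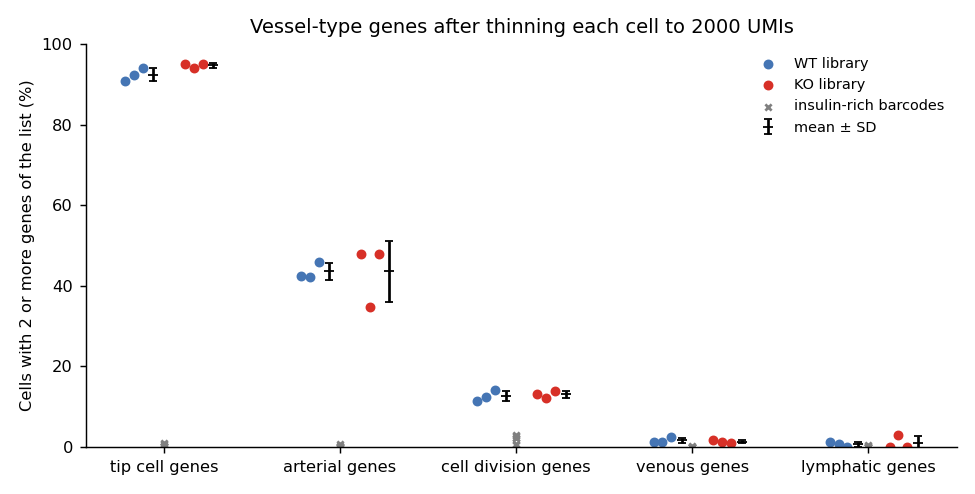
Share of endothelial cells with at least 2 genes of a list, in percent, after thinning to 2000 UMIs. Points are libraries (WT blue, KO red), bars are mean ± SD of 3 libraries, and grey crosses are insulin-rich barcodes of each library; tip cell shares lay from 90.8% to 95.1%, and venous shares from 1.0% to 2.35%.

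The cells were not uniform, and a small set had lower levels of most capillary genes. No *Esm1* UMI was found in 41 members, of which 23 had at least 3000 UMIs (0, 5, and 3 in WT and 2, 10, and 3 in KO replicates 1 to 3), and these 23 are set beside the 711 cells of that depth with *Esm1*. The split was made after values were seen and the cells were summed over libraries, so the levels are a description. Median depth was alike, 8279 and 8300.0 UMIs. Endothelial RNA was lower in general in the cells without *Esm1*, with 4231 against 11402 CPM summed over the 6 rule genes (0 of 6 higher), 5531 against 10800.0 CPM over the 25 pan-endothelial genes (3 higher), and 2585 against 10886 CPM over the 15 capillary genes (4 higher). *Igfbp3* was at 74.5 CPM in the cells without *Esm1* and 3321 CPM in the others, *Gpihbp1* at 77.5 and 1649 CPM, *Inhbb* at 65.6 and 969 CPM, and *Dll4* at 35.8 and 458 CPM. Venous genes went the other way, with 883 CPM summed over the list against 85.5 CPM and 7 of 8 genes higher. *Nr2f2* had 203 against 4.70 CPM and was found in 12 of the 23 cells, from 5 libraries, *Selp* had 119 against 0.671 CPM in 8 cells from 5 libraries, and *Vwf* had 107 against 13.8 CPM in 8 cells from 5 libraries. *Bmp4*, a bone morphogenetic protein, and *Edn1*, the endothelin-1 gene, were also higher without *Esm1*, at 236 against 2.28 CPM and 623 against 125 CPM.

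Genes of several other cell types were also higher in those 23 cells, and their part in these levels was not tested. Macrophage markers summed to 620.2 against 59.1 CPM and mesenchymal markers to 301 against 35.3 CPM, but several of these genes lay in few cells. *C1qb* and *C1qc* were each found in 1 of the 23 cells, *Lyz2* and *Cd68* in 2, and *C1qa* in 6. *Dcn* and *Acta2* were each found in 3 cells of 1 library. Markers of δ cells, chiefly the somatostatin gene *Sst*, summed to 10334 against 445 CPM. Those of α cells summed to 10805 against 3347 CPM and those of PP cells to 15352 against 5037 CPM. Acinar, lymphocyte, and erythroid markers were lower. *Lyve1*, a hyaluronan receptor of lymphatic vessels, belonged almost wholly to 1 library, since 129 of its 131 UMIs lay in 6 cells of KO replicate 2, 5 of them with at least 2 UMIs. Of the other lymphatic genes, *Reln* had 7 UMIs and *Mmrn1* 1 over all cells, whereas *Flt4*, which blood capillaries also express, had 203 to 327 CPM in the 6 libraries, and insulin-rich barcodes had a *Lyve1* UMI in 1.20% of cells when thinned, against 0.358% of endothelial cells. *Fn1* (fibronectin) reached 334 UMIs in WT replicate 3, of which 94.6% were in 5 cells, and had 3 to 35 UMIs in each other library.

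**Figure D4:**
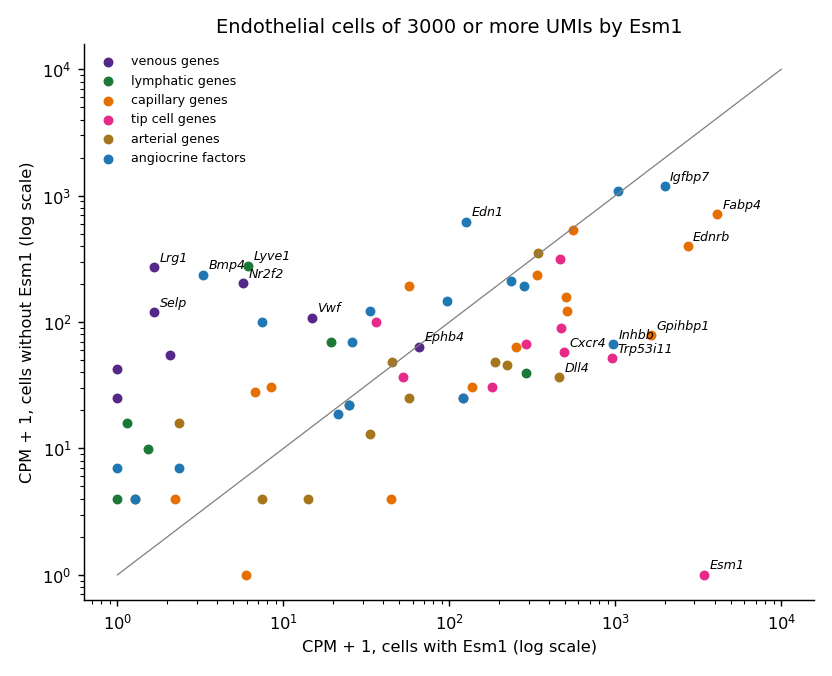
CPM + 1 of genes of 6 lists, on log axes, summed over the 711 cells with *Esm1* (horizontal) and the 23 cells without (vertical), all of at least 3000 UMIs. Each point is a gene coloured by list and the line marks equal levels; venous genes such as *Nr2f2* (203 against 4.70 CPM) lie above the line and capillary genes such as *Gpihbp1* (77.5 against 1649 CPM) below it.

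Beyond this set, several genes of endothelial function were carried by few cells. *Cldn5*, the tight junction claudin of the blood-brain barrier, had a UMI in 137 of 810 cells and at least 10 UMIs in 37, and its level ran from 53.1 to 336 CPM among libraries. *Edn1* had a UMI in 132 cells and up to 147 UMIs in a single cell, *Apln* (apelin, a peptide of tip cells) in 189 cells, *Igfbp5* in 96 cells, and *Mgp* (matrix Gla protein) in 92 cells. The 5 cells richest in *Mgp* held 98.6% of its UMIs in KO replicate 1 and 73.9% in KO replicate 2, where 13 cells had at least 10 UMIs, and its level ranged from 11.4 to 819 CPM among libraries. These counts were not adjusted for depth.

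The basement membrane genes were led by *Sparc*, a collagen-binding protein (2090.3 to 3341 CPM), and by the type IV collagen chains *Col4a1* and *Col4a2*, with means of 1589.7 and 1345 CPM, and *Nid1* (nidogen) and *Lamb1* (a laminin chain) had 416 CPM each. Among secreted factors, *Igfbp7* had a mean of 1943 CPM, *Thbs1* (thrombospondin 1) 1069.97 CPM, and *Inhbb* 960.1 CPM, while *Hgf*, the hepatocyte growth factor gene, had 0.297 CPM. Of receptors for islet and metabolic hormones, the insulin receptor gene *Insr* had 162, 101, and 113 CPM in WT and 108, 83.4, and 109 CPM in KO. *Glp1r*, the GLP-1 receptor gene, had 32.3 to 119.9 CPM, and *Gcgr* (glucagon receptor) and *Sstr2* (a somatostatin receptor) had 2.73 and 0.396 CPM. β cells also express *Glp1r*, and its share from free RNA was not tested.

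No difference in the share of endothelial cells was detectable between genotypes. They were 5.30%, 1.93%, and 2.94% of kept barcodes in WT and 4.17%, 3.56%, and 2.37% in KO (means 3.39% ± 1.73 and 3.37% ± 0.918, SD, n = 3 libraries each, exact permutation p = 1, smallest possible 0.1). The genotypes overlapped, and the widest spread was within WT. The median endothelial cell had 10083, 7332, and 10048 UMIs in WT and 8914, 6603, and 8296 in KO. Hormone transcripts were found in these cells in every library, with insulin at a median of 0.740%, 5.34%, and 2.74% of UMIs in WT and 2.65%, 8.74%, and 4.71% in KO. KO replicate 2 was the highest in insulin and the lowest in depth, and no measure of depth, mitochondrial share, or hormone share separated the genotypes (exact permutation p from 0.3 to 0.6). At least 3 of the endocrine genes *Neurod1*, *Pax6*, *Slc30a8*, and *Scg3* were found in 91 members (11.2%), from 4.04% in WT replicate 1 to 16.7% in KO replicate 2.

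The comparison of genotypes asked whether endothelial cells next to β cells without 14-3-3ζ differed in expression. The label check came first. In insulin-rich barcodes *Ywhaz* stood at 143, 158, and 151 CPM in WT and 22.0, 33.8, and 22.6 CPM in KO. These values were TMM-scaled over the genes tested there, unlike the endothelial levels given next. The log2 fold change was -2.53 (SE 0.169, edgeR adjusted p = 0.00356). In endothelial cells *Ywhaz* (chromosome 15, 36770770 to 36796929, minus strand) stood at 521, 402, and 446 CPM in WT and 388, 334, and 394 CPM in KO. Every KO library lay below every WT library, as for 7.09% of all genes tested in CPM. The log2 fold change was -0.24 (SE 0.134, edgeR adjusted p = 0.984), which did not pass the test. The counts summed a whole gene and not exon 4 alone. Insulin transcripts, the measure of RNA from β cells, were present in both genotypes, and the part of free or doublet RNA in the *Ywhaz* difference was not tested. With insulin limited to 10% of UMIs the log2 fold change was -0.16. The other 14-3-3 genes differed by -0.18 (*Ywhag*) to 0.15 (*Ywhaq*), and *Ywhae* and *Ywhaz* were the most abundant, with means of 416 and 414 CPM, while *Sfn* had 5.62 CPM.

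No gene passed the test between genotypes. Of 7124 genes that had a UMI in over 15% of the endothelial cells of a genotype, edgeR's quasi-likelihood test called 0 (0%) at an adjusted p below 0.05 and an absolute log2 fold change above 0.1. The lowest edgeR adjusted p was 0.902, and on leaving out 1 library it ranged from 0.0585 (without WT replicate 1) to 0.999 (without KO replicate 2), with 0.240 without WT replicate 3 and 0.288 without KO replicate 1. It was 0.127 in DESeq2. At an unadjusted p below 0.05 there were 275 genes (3.86%), 130 higher (1.82%) and 145 lower (2.04%) in KO. DESeq2 called 0 as well, with 104 genes at an unadjusted p below 0.05. The libraries of both genotypes did not overlap for 705 genes (9.9%), with KO above WT for 200 (2.81%) and below for 505 (7.09%) in CPM, and for 311 (4.37%) and 354 (4.97%) after TMM scaling. Leaving out KO replicate 1 gave 0 calls and 552 genes at an unadjusted p below 0.05, and leaving out KO replicate 2, the richest in hormone and macrophage RNA, gave 0 and 215. Of the alternatives run, the fit without a filter on low counts was alone in calling genes, 100 in all, and it assigned all genes the spread of the shared trend. The 6 rule genes had log2 fold changes from -0.23 (*Cdh5*) to 0.20 (*Egfl7*).

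**Figure D5:**
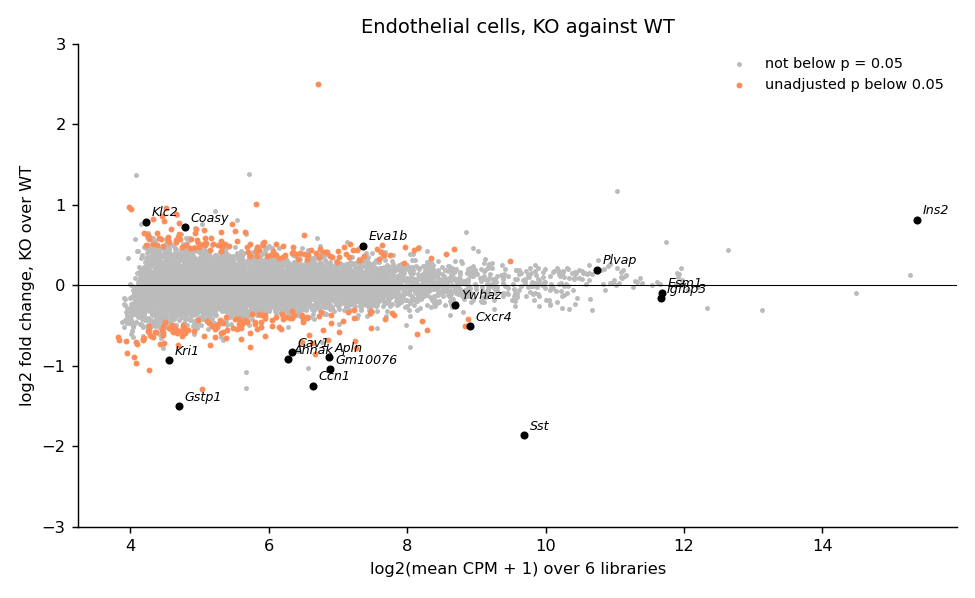
Log2 fold change of KO over WT for the 7124 genes tested, against log2 of the mean CPM + 1 over 6 libraries. Grey points had an unadjusted p of 0.05 or more, orange points less, and named genes are black; no gene passed the adjusted threshold, and *Ywhaz* lay at -0.24.

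The genes of lowest p are given with their values, none of which passed. *Gstp1*, a glutathione S-transferase, stood at 27.7, 40.3, and 43.0 CPM in WT and 16.8, 8.34, and 13.7 CPM in KO, a log2 fold change of -1.50 (SE 0.276, edgeR adjusted p = 0.902). It shares sequence with near copies in the genome, as does the predicted gene *Gm10076* (log2 fold change -1.04), so their counts are uncertain. *Ahnak*, a large scaffold protein, stood at 106, 80.5, and 119.8 CPM in WT and 54.8, 53.4, and 45.0 CPM in KO, a log2 fold change of -0.92 (SE 0.180). *Kri1* and *Ep300*, a histone acetyltransferase, completed the 5 lowest genes below WT, at -0.93 and -0.62. The 5 above WT were *Coasy* (0.72), an enzyme of coenzyme A synthesis, *Eva1b* (0.49), *Psmd10* (0.67), *Mrpl14* (0.68), a mitochondrial ribosomal protein, and *Klc2* (0.79), a kinesin light chain. In each of these genes the KO libraries lay all on the same side of the WT libraries, as for 9.9% of all genes tested. The genes were picked by their p, so this is not separate evidence. *Apoe*, named after its values were seen, had the highest fold change with a p below 0.05 (2.50), and it rested on KO replicate 2, at 439 CPM beside 18.6 to 61.4 CPM in the other libraries. That library also had the most macrophage marker RNA, with up to 289 CPM summed over 8 markers against 4.61 to 33.6 CPM in WT. KO replicate 2 further held 10 of the 23 members of at least 3000 UMIs without *Esm1*. *Apoe* had 1589 CPM in those 23 members, in 15 cells from 4 libraries, against 64.7 CPM in the 711 with *Esm1*. The part of macrophage RNA or of members without *Esm1* in the *Apoe* difference was not tested.

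Described by list, 8 of the 9 tip cell genes tested (10 were listed) had a negative log2 fold change and 0 were called. Their median was -0.10, beside -0.00 over all genes tested, of which 3618 of 7124 were negative. The median was -0.05 without KO replicate 2 and -0.19 without WT replicate 1. *Apln*, *Cxcr4*, and *Kcne3* had an unadjusted p below 0.05 (beside 3.86% of all genes tested) and are named for it after their values were seen. *Apln* stood at 179.9, 142, and 141 CPM in WT and 111, 74.5, and 49.9 CPM in KO (log2 fold change -0.89, SE 0.222), and *Cxcr4*, a chemokine receptor, at 671, 509, and 534 CPM in WT and 383, 393, and 374 CPM in KO (-0.51, SE 0.141). All KO libraries were below all WT libraries for both genes (beside 7.09% of all genes tested in CPM). Few cells carried *Apln*: its 5 richest cells held 72.8%, 38.9%, and 70.7% of its UMIs in WT and 50%, 44.8%, and 60.8% in KO. *Kcne3*, a potassium channel subunit, went the other way at 0.44 (SE 0.144). *Esm1*, *Angpt2*, and *Mcam* of the same list had -0.09, -0.13, and -0.07.

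Of the 16 vascular tone genes, 12 were tested and 5 had an unadjusted p below 0.05, all lower in KO (beside 2.04% of all genes tested), while 0 were called (median -0.15). They included *Cav1*, which encodes the main protein of caveolae, at 141, 74.5, and 93.6 CPM in WT and 70.9, 36.7, and 60.7 CPM in KO (log2 fold change -0.83, SE 0.248), its partners *Cav2* (-0.48) and *Cavin1* (-0.56), the angiotensin-converting enzyme gene *Ace* (-0.53), and *Edn1* (-0.77). In CPM, the KO libraries lay below the WT libraries for the first 4 (beside 7.09% of all genes), and overlapped for *Edn1*. Few cells carried *Edn1*: its 5 richest cells held 84.9%, 55.2%, and 69.4% of its UMIs in WT and 58.8%, 58.7%, and 76.7% in KO. A single cell of WT replicate 1 held 147 of the 278 UMIs there. The endothelial nitric oxide pathway was represented by *Nos3*, with a mean of 128 CPM, and it was not among the 5. Leaving out WT replicate 1 brought the median of the list to -0.07, and leaving out KO replicate 1 to -0.28. Of the 10 angiocrine factors tested, 4 had an unadjusted p below 0.05, all lower in KO (beside 2.04% of all genes): *Edn1* and *Apln*, which were already counted in the vascular tone and tip cell lists, *Bmp6* (-0.64), and the matricellular gene *Ccn1* (-1.25), with a list median of -0.29 that was -0.13 without KO replicate 2 and -0.46 without KO replicate 1. *Inhbb*, *Thbs1*, and *Igfbp7* of this list had -0.25, -0.25, and 0.26.

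Nuclear-encoded subunits of oxidative phosphorylation mostly had positive log2 fold changes. All 76 were tested, 0 were called, and 70 had a positive log2 fold change, with a median of 0.19. Over all genes, 3506 of 7124 were positive. An unadjusted p below 0.05 was met by 6, all higher in KO (beside 1.82% of all genes tested): *Atp5j* (0.39), *Ndufb2* (0.42), *Ndufb5* (0.35), *Ndufb7* (0.32), *Ndufb10* (0.37), and *Cyc1* (0.30). Without KO replicate 2, the library richest in insulin transcripts, 49 of 76 were positive and the median was 0.03. With insulin limited to 10% of UMIs, 67 were positive (median 0.16). The 13 mitochondrially encoded mRNAs had a median of -0.02.

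The remaining lists held few genes past an unadjusted p of 0.05 (beside 3.86% of all genes tested) and none called. Of 11 capillary genes tested, 10 were positive (median 0.19), 1 of them, *Cd300lg* (0.48), with such a p, and without KO replicate 3 the median was 0.09. Of 13 basement membrane genes 10 were negative (median -0.10), but without KO replicate 2 the median was 0.01. Of 7 hypoxia genes *Bnip3* (-1.29) and *Ndrg1* (-0.42) had such a p, and the list median of -0.26 was -0.00 without WT replicate 2. Among 13 genes of leukocyte adhesion and antigen presentation, genes with such a p included the interferon-responsive *Bst2* (0.51) and the transcription factor gene *Irf1* (-0.41), with a list median of -0.03. *Nr4a1* (0.36) among 16 immediate early genes and *Stmn1* (0.48) among 5 cell division genes also had such a p. The receptors and ligands of VEGF, TIE, Notch, and BMP signalling (20 tested, 11 positive, median 0.01), junction genes (10 tested, 9 negative, median -0.10), and hormone and growth factor receptors (7 tested, 5 negative, median -0.11) held none. The first of these medians was -0.16 without KO replicate 1 and 0.13 without KO replicate 2, the second was -0.00 without WT replicate 1, -0.03 without KO replicate 2 and -0.17 without KO replicate 1, and the third was -0.05 without KO replicate 2.

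Marker lists of other cells set the limits of these values. Summed over 8 β cell markers, endothelial cells held 15493 to 66586 CPM in WT and 46503 to 107821 CPM in KO, with *Ins1* and *Ins2* the largest part. Markers of α cells summed to 1719 to 5253 CPM in WT and 2495 to 5266 CPM in KO, those of PP cells to 1053 to 8228 and 881 to 10126 CPM, and those of δ cells to 239 to 3622 and 289 to 532 CPM. *Sst* had a p below 0.05 (log2 fold change -1.86, SE 0.793), and WT replicate 3 held 3390.4 CPM beside 179.8 to 435 CPM elsewhere. Acinar (12.1 to 175 CPM in WT, 10.2 to 161 in KO), ductal (69.2 to 180.5 and 96.5 to 407), mesenchymal (25.5 to 67.5 and 22.5 to 80.7), lymphocyte (5.90 to 105 and 0.731 to 226), erythroid (0 to 12.9 and 2.94 to 22.7), and Schwann cell markers (1.34 to 8.30 and 2.94 to 4.39) were lower. *Sox10*, *Alas2*, *Nkg7*, and *Amy2a5* were at 0 in all 6 libraries. Their part in the genotype comparison was not tested.

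In the 15 pairs of libraries, 7 to 27 barcodes were shared, none of them endothelial in both, and 3 endothelial barcodes were present in another library. Summed endothelial counts differed between all pairs by more than sampling noise (chi-square per degree of freedom 4.29 to 23.0), so no library was a copy of another.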

How the data were processed

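Islet libraries of 2 genotypes, 3 WT and 3 β14-3-3ζ–KO, were analysed. The authors made the libraries with the 10x Chromium 3′ kit and processed them with Cell Ranger 6.0.2 on mm10 and with Seurat, per the submitters' processing notes. The deposited values were UMI counts per gene and barcode, whole numbers without normalization. Library totals were 74083947 to 98294915 UMIs, and the endothelial cells held 1021220 to 1797874 UMIs a library.

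The members and lists were chosen with earlier results of these data known. UMI counts were summed per library over the members and tested with edgeR 4.0.16 (glmQLFit, glmQLFTest, TMM) in R 4.3.3 without covariates, on genes that had a UMI in over 15% of the members of a genotype, with Benjamini-Hochberg adjustment over all genes. The thresholds were the study's. The step was tested on simulated counts with known fold changes. DESeq2 1.42.0 was an alternative. Shares and medians were compared with 2-sided exact permutation tests over libraries. Counts were handled in Python 3.11.15 with scanpy 1.11.5 and scipy 1.17.1. No doublet caller was applied in the main analysis, and leaving out the top Scrublet scores was an alternative. The authors' cell annotation was not used here.

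Named genes were the rule genes with *Rgs5*, *Ptprc*, *Ins1*, and *Ins2*, the 3 other markers, the 14-3-3 genes, the 4 highest of each list, the 5 lowest p values in each direction, and the 10 largest ratios to other classes. Other genes were named after their values were seen. Coordinates are from GENCODE (GRCm38, the same assembly as mm10). Alternatives were another normalization, filters, gates, a replicate block, and leaving out each library.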

Additional observations from a re-analysis of the deposited data

How the results depend on the processing

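Of 20 alternatives to the genotype test, 19 called 0 genes: DESeq2, RLE and upper-quartile scaling, edgeR's own expression filter, a replicate block, stricter gates (5 rule genes, insulin under 10%, 1000 genes, no *Rgs5* UMI), leaving out top doublet scores, hormone genes, members with endocrine transcripts or members without *Esm1*, and leaving out each library (0 to 0 genes). Upper-quartile scaling and the last 2 gates were added after seeing the data. Without a filter on low counts, 17066 genes were tested and 100 were called (65 higher and 35 lower in KO, 33 of which passed the filter used here), and that fit had an infinite prior degree of freedom beside 8.16 in the filtered fit, so it did not use the spread of the single gene.

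The change of *Ywhaz* in endothelial cells stayed negative and short of the threshold in all 20 alternatives, from -0.31 to -0.15, both met on leaving out a library, and in insulin-rich barcodes it was -2.76 to -2.42 on leaving out each library. With a replicate block, *Ywhaz* was -0.23 and 0 genes were called (lowest edgeR adjusted p = 0.177), with 473 genes at an unadjusted p below 0.05. Same-numbered libraries correlated in their deviations at 0.305, 0.289, and -0.00797. Replicates 1 and 2 of each genotype correlated best with their own number, and replicates 3 did not. With 3 libraries a genotype, these values cannot decide whether the numbers pair the samples. Among the 132 named genes tested, none was called in the main fit, and 57 changed sign under some alternative. Without a filter on low counts, 14 named genes were called.

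On leaving out each library, the KO minus WT difference ranged from -0.754 to 0.932 percentage points for the endothelial share, from -2.17 to 4.44 for arterial, -0.521 to 0.0805 for venous, -0.5996 to 0.903 for lymphatic, 1.54 to 3.20 for tip cell, and -0.219 to 1.09 for cell division genes. Without thinning, the difference was -4.48 points for venous and -3.24 points for cell division genes. For venous genes all KO libraries then lay below all WT libraries (exact permutation p = 0.1, Benjamini-Hochberg adjusted p = 0.5), with depth not adjusted. At 1000 UMIs the difference was 0.731 points for venous and -2.71 points for tip cell genes, both opposite in sign to 2000 UMIs. The venous value there (exact permutation p = 0.1) rested on 1 cell in each KO library and 0 in each WT library. No direction can therefore be read for these lists. With 3 libraries a genotype, exact tests cannot go below 0.1.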
